A study of Drosophila melanogaster with 2 samples.

Results

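The genes polyhomeotic proximal (ph-p, FBgn0004861) and polyhomeotic distal (ph-d, FBgn0004860) are tandem copies on the X chromosome of Drosophila melanogaster. The peaks of a tagged chromatin protein at these 2 genes, of 13968 protein-coding genes in all, are described here. The pair was chosen by name with its peaks known, among them one of the strongest of the series, so the peaks of both copies are given as a description, with no test. A peak was counted when its summit, the base of highest enrichment, lay in a gene body or in the 5 kb on either side. A summit between the genes was given to the nearer copy.

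The data are chromatin immunoprecipitation with sequencing (ChIP-seq) of whole embryos, 0 to 8 hours old, from 1 transgenic line. These embryos make the protein of CG8765 as a fusion to enhanced green fluorescent protein (CG8765-eGFP), which was pulled down with an antibody against GFP. The labels name 2 biological replicates of this 1 group, and they do not give the promoter of the fusion or say whether the untagged protein is also made. Whole embryos hold many cell types, so no peak can be assigned to one of them.

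The authors' 8 peak lists were read. For the series as a whole there were a conservative list (2167 peaks), a less strict list (2877 peaks) and 2 ranked lists (142775 and 145441 peaks). Each replicate had a thresholded list (1919 peaks in replicate 1 and 1693 in replicate 2) and a ranked list (108098 and 127098 peaks). The thresholds rest on the irreproducible discovery rate (IDR), which measures how reproducibly peaks rank between 2 sets of peaks. Ranked lists hold peaks before that threshold, and most of them are weak. The signal is the authors' own value for each peak, and each peak of the pair described here has the same value in every list of the series that holds it. The replicates' lists have values of their own, on a scale that no label states, so they are related to the series and to each other by rank. Read depth is unknown, and no interval on a signal can be given.

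Polyhomeotic is a core subunit of Polycomb repressive complex 1 (PRC1), which keeps developmental genes silent in cells where they are not in use. Its SAM domain lets Polyhomeotic proteins join into chains, and PRC1 compacts the chromatin of its targets. The ph locus is itself a known target of Polycomb group proteins. Both copies encode Polyhomeotic proteins, and their shared coding sequence makes them hard to tell apart with short reads.

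On assembly dm6, ph-p spans X 2126210 to 2138371 (12162 bp) and ph-d spans X 2115727 to 2123286 (7560 bp), both on the minus strand and 2923 bp apart. Reading in the direction of transcription, ph-p comes first and ph-d follows. The annotation gives ph-p 3 start sites, at 2138371, 2136855 and 2136622, and ph-d 2, at 2123286 and 2121792. The ph-p start site at 2136855 aligns base for base with the ph-d start site at 2123286, and no other start site of either gene lies in aligned sequence. These 2 are called the matched start sites below.

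The sequences of the strongest peak of each copy are shown first because the copies differ in sequence at these peaks, on the minus strand (the coding strand), 5′ to 3′. The first is 300 bases of the 304-base ph-p peak, chrX:2137204-2137503, and its capitals mark the stretch with no counterpart in ph-d. The next is the whole ph-d peak, chrX:2123978-2124137, and its capitals mark the bases that align with ph-p. The last pair is the 3′ edge of the ph-p peak, chrX:2137202-2137264, and the ph-d bases it aligns with, chrX:2123635-2123696, in which capitals mark bases that differ or are missing in the other copy. All come from the RefSeq genome sequence of the same build.
ph-p strongest peak: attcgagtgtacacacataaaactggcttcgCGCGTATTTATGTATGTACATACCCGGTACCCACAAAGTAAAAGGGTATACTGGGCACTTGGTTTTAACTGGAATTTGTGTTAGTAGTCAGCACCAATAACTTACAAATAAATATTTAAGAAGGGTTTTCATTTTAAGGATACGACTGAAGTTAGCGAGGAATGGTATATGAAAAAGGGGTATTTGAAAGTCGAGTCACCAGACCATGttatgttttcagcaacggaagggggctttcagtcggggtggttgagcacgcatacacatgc
ph-d strongest peak: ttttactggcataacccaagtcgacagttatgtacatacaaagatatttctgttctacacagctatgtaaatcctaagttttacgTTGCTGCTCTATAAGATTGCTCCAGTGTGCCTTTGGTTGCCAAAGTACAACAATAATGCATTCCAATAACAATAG
ph-p edge: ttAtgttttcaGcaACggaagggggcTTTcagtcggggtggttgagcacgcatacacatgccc
ph-d edge: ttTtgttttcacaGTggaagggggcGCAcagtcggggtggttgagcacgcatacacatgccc

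Peaks gathered in the 5′ part of ph-p, while the body of ph-d held none in any thresholded list. The conservative list had 5 summits in ph-p and 1 at ph-d, which lay 773 bp upstream of the matched start site. In ph-p, 2 of the 5 also lay upstream of the matched start site, by 1032 and 505 bp. They count as body because ph-p has a further start site outside them, at 2138371, which does not align with ph-d. The contrast between the bodies therefore depends in part on the annotated start sites. Of all protein-coding genes, 29.1% had at least 1 conservative summit in the body or 5 kb of it, and 6.31% had one in the body. The less strict list had 4 summits at ph-p and 3 at ph-d, where 33.9% of genes had at least 1. Replicate 1 had 2 at ph-p and 1 at ph-d, against 24.9% of genes with at least 1, and replicate 2 had 4 at ph-p and 1 at ph-d, against 24.7%. The body alone held a summit in 7.88% of genes in the less strict list, 5.18% in replicate 1 and 5.28% in replicate 2. In the map of thresholded peaks, all ph-p summits lie within the first 3868 bp of the gene.

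**Figure D1:**
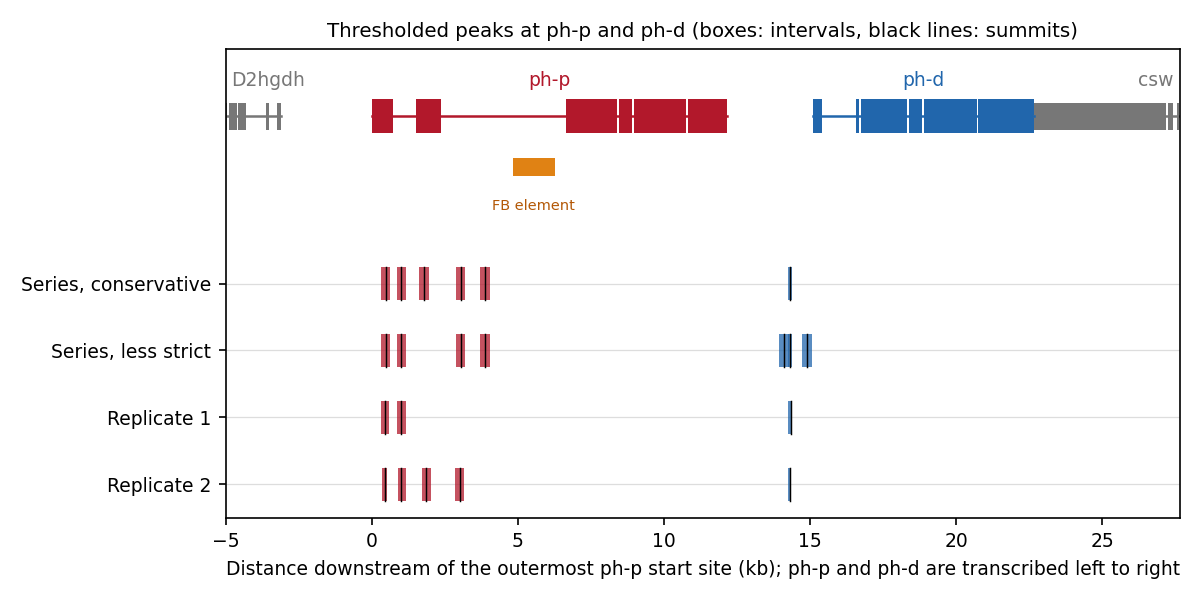
Gene models (exons as boxes), the FB transposable element in a ph-p intron, and thresholded peaks of 4 lists, by distance downstream of the outermost ph-p start site in kb. Boxes are peak intervals and black lines summits, red for ph-p and blue for ph-d; the conservative list shows 5 peaks in ph-p and 1 before ph-d, and no list has a peak in the ph-d body.

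Below, the peaks are numbered 5′ to 3′ at each gene, as ph-p 1 to 5 and ph-d 1 to 3. The 5 ph-p summits spanned 3384 bp, with gaps of 527, 777, 1255 and 825 bp in that order.

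The strongest peak of the pair was ph-p 2, at X 2137202 to 2137505 with its summit at 2137360. It lies in the first intron of the longest transcript, 1011 bp into the gene and 505 bp upstream of the matched start site. Its signal was 1403 in the conservative list, rank 3 of 2167 and 13.4 times the list's median of 104.5. In the replicates' own thresholded lists it had a signal of 753.8 and rank 2 in replicate 1, and 662.4 and rank 5 in replicate 2. Both summits were within 6 bp of that of the series. This peak therefore stood near the top of every list, and in the ranked lists its rank was 3 in replicate 1, 6 in replicate 2 and 5 in both lists of the series.

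The next was ph-p 1, at X 2137756 to 2138037 with its summit at 2137887, in the 5′ untranslated part of exon 1 and 484 bp downstream of the outermost start site. Its signal was 483.1 in the conservative list, rank 64. Replicate 1 gave it 179.4 and rank 117, and replicate 2 gave it 306.3 and rank 50. The summits of the replicates lay 28 and 34 bp upstream of that of the series. The ratio of ph-p 2 to ph-p 1 was 4.20 in replicate 1, 2.16 in replicate 2 and 2.90 in the series, so ph-p 2 was the stronger in both replicates by amounts that differed.

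The other 3 ph-p peaks were near or below the middle of the conservative list, and none was in the thresholded lists of both replicates. The intronic ph-p 5 (X 2134341 to 2134664, summit 2134503) had a signal of 102.1 and rank 1119. It was in neither replicate's thresholded list. Its ranked signals were 44.9 in replicate 1, rank 1544 of 108098, and 56.0 in replicate 2, rank 1214 of 127098. The intronic ph-p 4 (X 2135166 to 2135489, summit 2135328) had a signal of 97.9 and rank 1193. It passed the threshold in replicate 2, with a signal of 74.3, and was in the ranked list alone in replicate 1, with 25.3. The weakest was ph-p 3 (X 2136421 to 2136744, summit 2136583), 39 bp downstream of the start site at 2136622, with a signal of 59.5 and rank 2029. It passed in replicate 2 (48.9) and not in replicate 1 (28.2), and its replicate summits were 163 bp apart.

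Being in the conservative list did not mean being in the less strict one: 172 conservative peaks of the series were outside the less strict list, and ph-p 3 was one of these. Its score, the authors' whole number set from the IDR with a highest value of 1000, was 919 in the ranked list that contains the conservative peaks and 727 in the one that contains the less strict peaks. The lowest score in every thresholded list was 830. The score of ph-p 5 was 1000 in the conservative list, the less strict list and both ranked lists of the series.

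The one conservative peak at ph-d was ph-d 2, at X 2123978 to 2124137 with its summit at 2124059, between the genes. Its signal was 190.5 and its rank 416 of 2167, which is 1.82 times the list's median. Replicate 1 gave it 90.9 and rank 467, and replicate 2 gave it 89.3 and rank 502. The summits were 19 bp downstream and 6 bp upstream of that of the series. It thus passed the threshold in both replicates at close to the same rank, and at 160 bp it was narrower than the 324 bp that 83.7% of conservative peaks share.

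The other ph-d peaks were in the less strict list alone. The peak ph-d 3 (X 2123321 to 2123644, summit 2123483) lay 197 bp upstream of the matched start site, with a signal of 60.4 in the series. Its ranked signals were 24.96 in replicate 1 and 38.3 in replicate 2. The scores there were 830 in replicate 1, equal to the lowest of the thresholded lists, and 25 in replicate 2. The peak ph-d 1 (X 2124098 to 2124421, summit 2124260) overlapped ph-d 2 and had a signal of 49.8. Its ranked signals were 3.72 in replicate 1, rank 101850 of 108098, and 15.04 in replicate 2, rank 51757 of 127098. For ph-d 1 the replicates therefore hold little signal of their own.

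**Figure D2:**
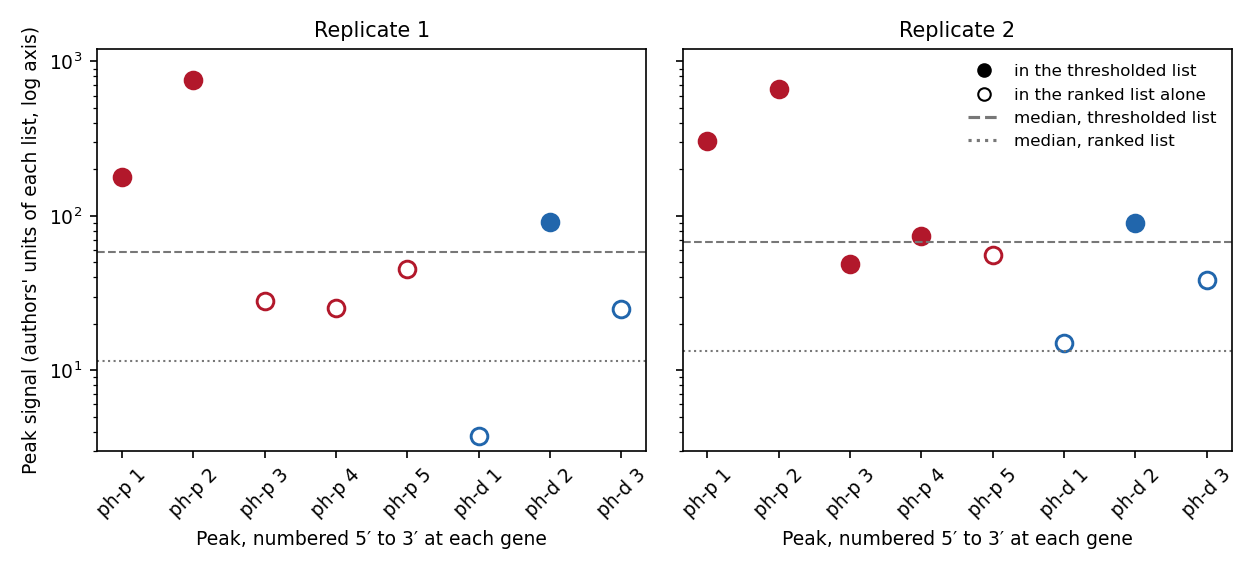
Signal of the 8 peaks in replicate 1 and replicate 2 (log axis, the authors' units of each list), with filled points for peaks in the replicate's thresholded list and open points for peaks in its ranked list alone. Dashed and dotted lines are list medians; ph-p 2 is highest in both replicates, and ph-p 1, ph-p 2 and ph-d 2 are the 3 filled in both.

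Of the 6 conservative peaks of the pair, 3 overlapped a thresholded peak of replicate 1 and 5 one of replicate 2. The 3 that overlapped both were ph-p 1, ph-p 2 and ph-d 2, and ph-p 5 overlapped neither. The series lists were made from both replicates and are not independent of them.

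The strongest ph-p peak exceeded the strongest ph-d peak in every list. The ratio of ph-p 2 to ph-d 2 was 8.29 in replicate 1, 7.42 in replicate 2 and 7.36 in the series. The ratio of ph-p 1 to ph-d 2 was 1.97 in replicate 1, 3.43 in replicate 2 and 2.54 in the series. With 2 replicates and genes chosen for these peaks, the ratios are descriptions. Within the ph-d body, the highest ranked peak of the series had a signal of 32.2 at X 2122084 to 2122407, rank 26871 of 142775, beside a list median of 19.8. Ranked peaks of any strength numbered 1.23 per kb in the ph-p body and 1.19 per kb in the ph-d body in the ranked list that contains the conservative peaks, and 1.23 and 1.46 per kb in the other.

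Alignment of the copies placed these peaks against the sequence they share. The longest shared block joined X 2126824 to 2131227 in ph-p with X 2116869 to 2121323 in ph-d and was 92.0% identical over 4480 aligned columns. It covers most of the run of exons in the 3′ part of each gene. No thresholded list had a summit in this block in either copy, and the highest ranked signal of the series there was 20.6 in ph-p and 26.2 in ph-d. A short block of 59 bases, 91.5% identical, lay just 5′ of it.

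The 5′ regions shared 3 further blocks. From the inside outward, the first joined X 2136747 to 2137264 in ph-p with X 2123181 to 2123696 in ph-d (90.7% identical) and held the matched start sites. The next joined X 2137473 to 2137855 with X 2123712 to 2124052 (70.5% identical), and the outermost joined X 2137954 to 2138299 with X 2124262 to 2124606 (81.0% identical). The block next to the start sites was thus the most alike.

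The strongest peak of ph-p sat where the copies part. Between the first 2 of these blocks ph-p has 208 bases, X 2137265 to 2137472, and ph-d has 15. The summit of ph-p 2 lay inside this ph-p stretch in all 8 lists, 89 to 95 bp from its 3′ edge and 112 to 118 bp from its 5′ edge. The stretch makes up 68.4% of the peak and is the run of capitals in the sequence above. A search of the genome with it returned the stretch itself and no other place. At the ph-p edge of the peak, which does align, 56 of 62 paired bases were identical, so the sequence resumes its likeness directly beside the stretch.

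The strongest peak of ph-d also lay at a gap between blocks. Between the next 2 blocks ph-p has 98 bases and ph-d has 209, X 2124053 to 2124261, and the summit of ph-d 2 lay in the ph-d bases, 7 bp from the nearest aligned one. Of its 160 bases 75 aligned with ph-p, at 74.7% identity, and they matched bases inside ph-p 1. In replicate 1 the ph-d summit fell 19 bp further on, at an aligned base. The summit of ph-p 1 lay in the 98 ph-p bases of the same gap. In this alignment of the whole copies, ph-p 1 and ph-d 2 therefore stand at the same gap, 1032 and 773 bp upstream of the matched start sites. The summit of the weaker ph-d 1 also lay in these ph-d bases, 2 bp from the nearest aligned one. When the ph-d 2 interval was aligned by itself, 0 of its 160 bases matched ph-p.

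**Figure D3:**
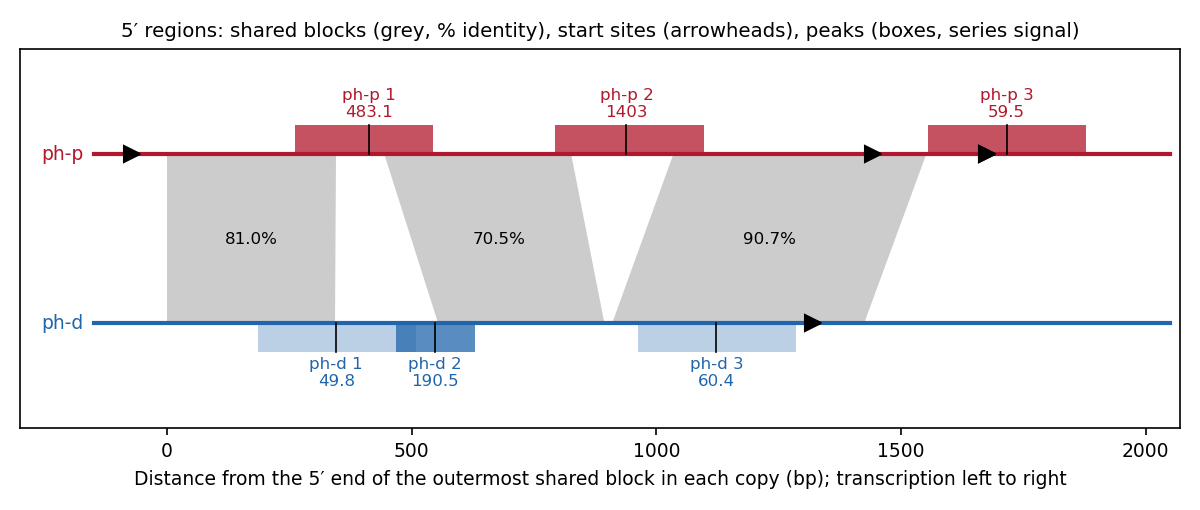
The 5′ regions of ph-p (top) and ph-d (bottom) by distance in bp from the 5′ end of the outermost shared block, with shared blocks in grey and their percent identity. Boxes are peaks with the signal of the series (pale boxes are in the less strict list alone), black lines summits and arrowheads start sites. Peak ph-p 2 lies over the stretch that ph-d lacks, and ph-p 1, ph-d 1 and ph-d 2 lie over the same gap.

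All 6 conservative summits were at bases that did not align with the other copy. Of the bases of the window, 32.7% on the ph-p side and 36.3% on the ph-d side were aligned. Most of these aligned bases were in the long coding block, which held no thresholded summit. The 2 shares therefore do not describe the 5′ regions where the peaks lay, and whether peaks avoid shared sequence was not tested. In the less strict list 1 of 7 summits was at an aligned base, in replicate 1 it was 1 of 3, and in replicate 2 it was 0 of 5. Among ranked peaks of the series, which are mostly weak, 14 of 41 were at aligned bases. Peaks ph-p 3, ph-p 4 and ph-p 5 had no aligned base at all.

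The exception was ph-d 3. Of its 324 bases 316 aligned with ph-p, at 97.2% identity, to X 2136890 to 2137211. No list, ranked lists included, had a summit in that ph-p interval. The near-identical sequence upstream of the matched start sites thus held a weak summit in ph-d and none in ph-p, where ph-p 2 touched its far edge.

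Reads from stretches that are identical in both copies cannot be placed with certainty. The share of 50-base words found once in the genome was therefore computed for each peak. It was 100% for all 6 conservative peaks of the pair and for ph-d 1, and 90.9% for ph-d 3. Of all conservative peaks on the chromosome arms, 99.2% had every such word once. The share was 69.8% over the ph-p body and 69.6% over the ph-d body. In the long coding block it was 47.6% in ph-p and 48.2% in ph-d, and whether this bears on the lack of peaks there was not tested. No label states the read length or how reads that map to several places were treated.

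**Figure D4:**
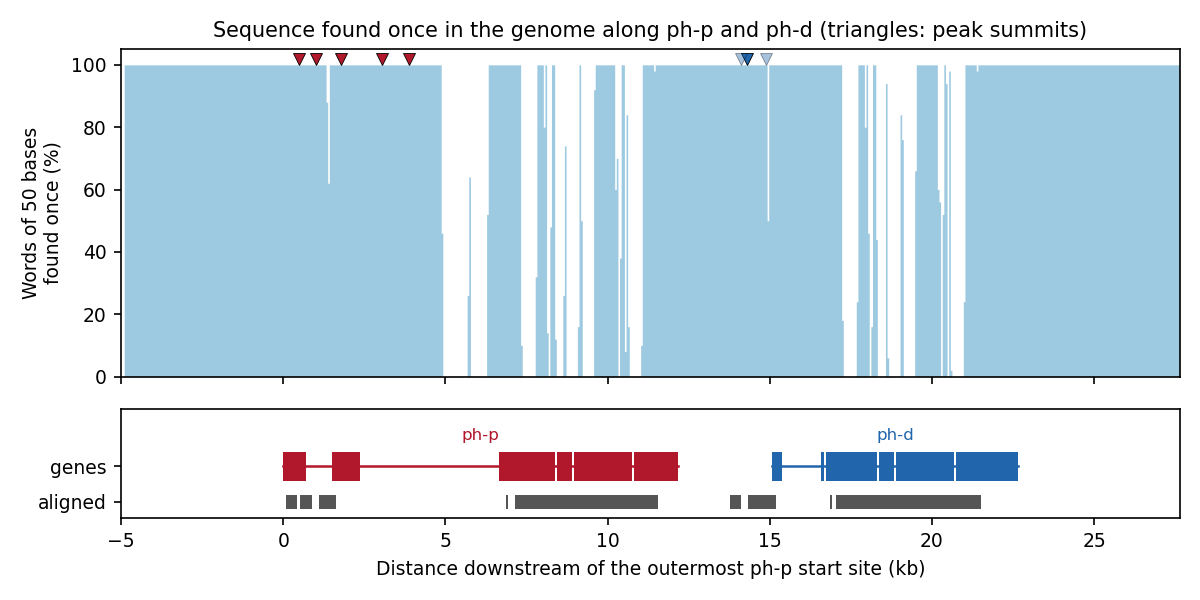
Share of words of 50 bases that occur once in the genome, in bins of 50 bp, by distance downstream of the outermost ph-p start site in kb, with gene models and aligned blocks below. Triangles are peak summits, pale for the less strict list alone; the long coding blocks and the FB element hold most repeated words, and the conservative summits lie where all words occur once.

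The FB element in the intron of ph-p (X 2132105 to 2133550, 1446 bp) is a transposable element of the reference strain. It held no summit in any list, and 3.22% of its 50-base words occurred once. No label says whether the embryos of this line carry it.

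The neighbouring genes had no thresholded summit within the window. These are csw, the gene of the tyrosine phosphatase Corkscrew, 25 bp from the 3′ end of ph-d, and D2hgdh, whose product acts on D-2-hydroxyglutarate, 3117 bp from the 5′ end of ph-p. The highest ranked peak of the ph-p flank was at X 2141257 to 2141580 beside D2hgdh, with a signal of 41.4 and rank 11212 of 142775. No conservative peak was close to the 5 kb limit: the summits lay in the ph-p body or 773 bp from the ph-d body. The nearest conservative summits outside were 26682 bp beyond the window on the ph-d side, near Unc-76 with a signal of 104.7, and 127435 bp beyond it on the ph-p side, at CG2924 with a signal of 104.2.

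Against other genes, ph-p had many summits for its length, and the standing of ph-d changed with the list. Counting the body and 5 kb on each side, ph-p had 6 conservative summits, since ph-d 2 is within 5 kb of both genes, and 10 genes (0.0716%) had as many or more, ph-p included. In the list of replicate 1 alone, where ph-p had 3, the share was 1.46% (204 genes), and in that of replicate 2, where it had 5, it was 0.136%. For ph-d, with 1, this share is the 29.1% given above, and in the less strict list, where it had 3, it was 3.39%. In the body alone 13 genes had 5 or more, and the other 12 were all longer than ph-p, between 16.9 and 394 kb. Those with the most were CG1677 (11), sbb (10), Raf (9) and kirre (8). Per kb of body ph-p had 0.411 summits, and 134 genes (0.959%) were at or above this.

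**Figure D5:**
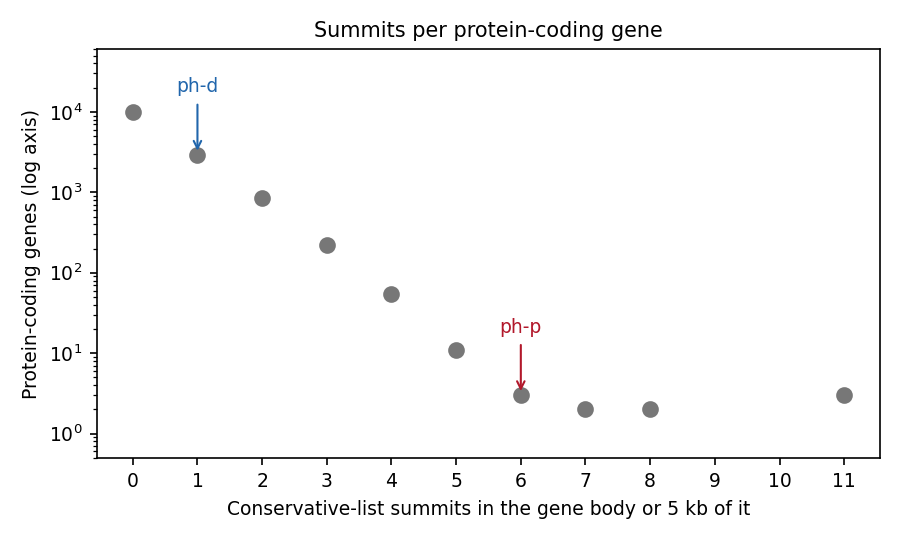
Number of protein-coding genes (log axis) by number of conservative summits in the body or 5 kb of it. Arrows mark ph-p with 6 summits, among 3 genes, and ph-d with 1, among 2917 genes.

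A list of 26 Polycomb group genes that includes ph-p and ph-d, chosen with earlier results of these data known, was counted in the same way. Without the pair, 15 of 24 genes had a conservative summit in the body or 5 kb (62.5%), beside 29.1% of all protein-coding genes, and with the pair 17 of 26 had one (65.4%). Their median body length was 7.08 kb, against 2.16 kb for all, and the wider window takes in peaks of neighbouring genes. With summits within 500 bp of a start site the count was 7 of 26 (26.9%), beside 10.5% of all. These 7 include ph-p, which was chosen for its peaks, and not ph-d. Among the 7 PRC1 genes those with a summit were ph-p, ph-d, Pc, Psc and Sce, and those without were Su(z)2 and Scm.

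The highest signals of the list were 1403 at ph-p, 916.3 at Caf1-55 (a histone-binding subunit of PRC2), 599.2 at phol (a DNA-binding relative of Pho), 558.9 at Trl (the gene of GAGA factor) and 546.1 at Psc (a PRC1 subunit). The peaks at Caf1-55, phol and Psc were in the flanks, with Art3, CG3552 and lncRNA:CR44339 as the genes of the nearest start sites. The ph-p and Trl peaks were inside the genes. The others with a summit were E(z) and Su(z)12 of PRC2 and Pcl, which joins that complex, calypso of the deubiquitinase complex PR-DUB, and Sfmbt, psq, Dsp1, cg and grh, which encode recruiters or DNA-binding proteins. The highest peaks of Sce, Pcl, calypso, Sfmbt, Dsp1 and cg were also in the flanks, with the start site of another gene nearest. For ph-d the signal was 190.5, and grh (339.1, in the gene), Pc (291.5, in the flank with the start site of CG11309 nearest) and E(z) (217.3, in the gene) lay between it and Psc.

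The peaks most like ph-p 2 in rank across both replicates were found among 2108 conservative peaks with a ranked peak in each. Likeness was the sum of the absolute log2 ratios of ranks over the 2 replicates. The nearest was at Ugalt (1.00), with ranks 5 and 5, followed by CG7601 (2.22), px (2.29), CG14100 (2.32) and Tcs5 (2.85). These 5 summits lay 39 to 202 bp upstream of a start site, whereas that of ph-p 2 lay 505 bp upstream of one.

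The sequence within 100 bp of each summit was searched on both strands for 10 fixed strings, where a match is no evidence of a site. Around ph-p 2 the one string present was GAAAA (linked to Dsp1), with 2 matches, and 35.4% of conservative peaks had as many. Around ph-d 2 it was GTGTG (linked to Combgap), with 1 match, beside 36% of peaks. Of the 8 summits, all but ph-d 2 had a match to GAAAA, as did 70% of conservative peaks. Around ph-p 1 GAAAA had 2 matches, as many as at ph-p 2, ph-p 3 and ph-d 1. The summit of ph-p 1 also had 2 matches to TATAAA, the TATA box, beside 9.62% of peaks with as many. Another string there was CGATA, linked to BEAF-32 and contained in the DNA replication-related element, with 1 match beside 28.9% of peaks. The weak ph-d 3 had 7 matches to GTGTG, overlapping ones counted, beside 1.22% of peaks with as many, and 2 to GAGAG (GAGA factor), beside 7.69%. The weak ph-d 1 had 3 matches to TAATTA (homeodomain proteins), a string that reads the same on both strands, beside 0.281%. The shares of 1.22 and 0.281% were the lowest over the 8 peaks and 10 strings. Single matches were also found to TATAAA at ph-p 4 (32.3% of peaks) and to GAGAG (25.7%) and TAATTA (15.1%) at ph-p 5. None of the 8 summits had GCCAT (the Pho core, in 27.5% of conservative peaks) or TGAGTG (Zeste, in 9.71%) within 100 bp. Within 200 bp GCCAT, in 50.9% of conservative peaks, had 1 match at each of ph-p 4 and ph-p 5. In that window TGAGTG, in 20.8%, had 2 matches at ph-p 3 and 1 at each of ph-p 1, ph-p 4 and ph-p 5. There GTGTG, in 62.9%, had 10 matches at ph-p 3, 8 at ph-d 3, 4 at each of ph-p 1 and ph-d 1, and at most 1 elsewhere. The other strings, the DNA replication-related element and core promoter motif 1, had no match within 100 bp of these summits.

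Base composition also varied among the peaks. The share of G and C within 100 bp of the summit was 36.8% at both ph-p 2 and ph-d 2, which is also the median of conservative peaks (quartiles 32.3 and 42.3%). It was 24.9% at ph-p 1, with 0.938% of conservative peaks lower, and 29.4% at ph-p 4. It was 50.7% at ph-p 3, 45.3% at ph-p 5, 21.4% at ph-d 1 (with 0.0469% of conservative peaks lower) and 55.7% at ph-d 3. The strongest peak of each copy was thus at the median, and the others ranged widely around it.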

How the data were processed

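ChIP-seq peaks of CG8765-eGFP in 2 biological replicates were read from 8 lists on dm6, per the labels and the text deposited with the samples. Aligner and caller: not given in the sources used here. Each signal is the authors' deposited value, the same for each peak of the pair in every list of the series that holds it, and on a scale that is not stated in the replicates' lists. The score deposited for each peak is a whole number set from the IDR, and the deposited ninth column, a score of unstated scale, served for ranking in 1 alternative. The ranked lists hold further columns, 20 in the 2 lists of the series and 20 in those of the replicates, that no label maps to a sample and that were not used. Depth is unknown.

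Summits were assigned to genes of Ensembl 115 (BDGP6.54). The copies were aligned with BLAST 2.17.0 (E-value at most 1e-05), and summits of different lists within 100 bp of each other were treated as 1 peak. Words of 50 bases were counted on both strands over the reference. Exact 95% binomial intervals on shares were computed but are not given here, and they cover counting error only. Computations ran in Python 3.11.15 with pandas 2.3.3, SciPy 1.17.1 and NumPy 2.4.6, and figures were drawn with matplotlib 3.10.9. The routines that count words, join intervals and measure distances were tested on simulated data, and the other steps were not.

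The members and lists were chosen with earlier results of these data known. The genes named are ph-p, ph-d, genes within 5 kb of either, Polycomb group genes with a conservative summit (values for the 5 of highest signal) and the 5 peaks closest to ph-p 2 in rank. The genes with the most summits, Polycomb genes without a summit, the values of grh, Pc and E(z), and the genes nearest other named peaks were added after their values were seen. No test was made, since the genes were chosen for their peaks and there is 1 group. The 2 proteins were not compared here.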

Additional observations from a re-analysis of the deposited data

How the results depend on the processing

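The ph-p count of 5 peaks was 4 in the less strict list and ranged from 2 to 4 with each replicate left out (2 in replicate 1's list alone), and 2 of the 5 exceeded the list's median signal. The ph-d count of 1 was 3 in the less strict list and 0 in the gene body alone. The rank of ph-p 2 ranged from 2 to 5 with each replicate left out and was 6 in replicate 2's ranked list. That of ph-d 2 (416) ranged from 467 to 502 with each replicate left out, was 487 and 530 in the ranked lists of replicates 1 and 2, and 501 by the ninth column. The share of genes with at least as many peaks as ph-p was 0.0716% for its 6 summits in the body and 5 kb, ph-d 2 among them. This share was 0.150% with a 10 kb flank and ranged from 0.136 to 1.46% with each replicate left out, the highest without replicate 2. That for ph-d (29.1%) was 100% for the body alone, 19.8% with 2 kb, 40.8% with 10 kb and 3.39% in the less strict list, and ranged from 24.7 to 24.9% with each replicate left out. Aligned by itself, the ph-p 2 interval matched ph-d over 20.7% of its bases, against 31.3% when whole copies were aligned (a choice made after seeing the data), 0% for 200 bp and 40.3% for 1000 bp at the summit. For ph-d 2 these were 0%, 46.9%, 0% and 29.7%. Within 200 bp, 2 strings were present at each of these summits in place of 1. The Polycomb count was 7 in place of 17 near start sites, and from 14 to 15 with each replicate left out. Overlap rules changed no overlap count. With words of 36 to 100 bases the strongest peak of each copy stayed at 100% found once, while ph-d 3 ranged from 80.3 to 100%, the bodies from 67.8 to 74.3% in ph-p and 67.5 to 75.2% in ph-d, and the coding block from 44.0 to 57.0% in ph-p and 44.6 to 57.5% in ph-d. No paired analysis was possible because there is 1 group. Depth is unknown, so a peak that misses a threshold cannot be told apart from one too thinly sequenced.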
